A study of Homo sapiens with 9 samples.

Results

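Keratins are the intermediate filament proteins of epithelial cells, and 55 of the 35762 rows of the count table were keratin genes, taken by symbol (KRT, digits and at most 1 letter A, B or C, so without pseudogenes and keratin-associated proteins). The cells were TYUC-1, a human neuroendocrine esophageal carcinoma line kept in suspension, and 3 biological replicates each were sequenced on day 0, day 3 and day 6 of EPZ-6438, a small-molecule inhibitor of EZH2, the histone H3 methyltransferase of Polycomb repressive complex PRC2. Every library is labelled with EPZ-6438, the labels' protocol gives 2 uM of it or DMSO, and the sources do not say if DMSO was given at day 0. Vehicle libraries of day 3 or day 6 were not analysed here, so exposure and time in culture cannot be told apart, and all values come from 1 cell line.

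A keratin filament is built from pairs of a type I (acidic) and a type II (neutral to basic) keratin. Simple, single-layered epithelia use KRT8 and KRT18 with KRT7, KRT19 or KRT20. The basal layer of stratified epithelium such as the esophageal lining uses KRT5 with KRT14 and KRT15, and its suprabasal layers use KRT4 with KRT13 in moist mucosa or KRT1 with KRT10 in epidermis. KRT6A, KRT16 and KRT17 come up in wounded or fast-dividing squamous epithelium, and a large remainder serves hair and its root sheath. Filaments are anchored at desmosomes between cells and at hemidesmosomes on the basement membrane.

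Of the 55 keratins, 29 are type I and 26 type II. In GENCODE release 29 on GRCh38, 27 lie on chromosome 12, among them KRT18 as the 1 type I gene there, and 28 on chromosome 17. In all 9 libraries 12 keratins had no count, 19 had 1 to 9 counts in total and 24 had 10 counts or more. The filter on low counts left 15 keratins for testing, while 28 had counts below it. KRT1 and KRT4 passed only with the day 6 libraries, where they are high (KRT1 reached the filter's minimum in 0 libraries of day 0 and day 3, KRT4 in 2 of day 0 and 0 of day 3), so their presence among the tested genes already favoured a difference. With no filter, KRT4 on day 6 against day 0 gave 3.77 on the log2 scale (edgeR adjusted p = 9.99e-13). Levels are given in CPM, the count relative to the TMM-scaled library size. Libraries held 21638874 to 31235055 estimated counts, so a count of 0 allows up to 3 counts, or 0.098 to 0.141 CPM in a library, counting error only. Day 0 replicate 2 stood apart from its group: the mean chi-square per gene was 55.6 and 47.7 against the other day 0 libraries, which differed from each other by 4.94, and the other within-day pairs gave 3.53 to 16.4. The markers of neuroendocrine cells fitted the label in part. Of 11, 8 averaged at least 1 CPM on some day, CHGA was at 0 in every library, and their sum was 600 to 693 CPM on day 0, 699 to 712 on day 3 and 731 to 791 on day 6. EPCAM and CDH1, epithelial surface and junction genes, averaged 468 and 231 CPM on day 0.

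Simple-epithelial keratins made up nearly all keratin RNA. KRT7, KRT8, KRT18 and KRT19 each averaged over 100 CPM on every day and together took 92.8 to 94.8% of keratin counts in each library. Keratins as a whole held 0.137 to 0.141% of counts on day 0, 0.138 to 0.144% on day 3 and 0.16 to 0.179% on day 6. Their summed level was 1450 ± 60.3 CPM on day 0, 1410 ± 52.9 CPM on day 3 and 1620 ± 128 CPM on day 6 (SD, n = 3 each). The lowest day 6 library and the highest day 0 library were both at 1510 CPM.

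KRT8, the type II simple keratin, stood at 454, 475 and 469 CPM on day 0, at 426, 457 and 458 on day 3 and at 537, 511 and 597 on day 6. Its day 6 libraries lay above all libraries of both earlier days. KRT8 rose by 0.24 (SE 0.08) on the log2 scale on day 6 against day 0 and by 0.30 (SE 0.08) on day 6 against day 3 (edgeR quasi-likelihood test, Benjamini-Hochberg adjusted p = 0.0228 and 0.0219). Its partner KRT18 had 286, 339 and 310 CPM on day 0, 257, 266 and 277 on day 3 and 323, 323 and 373 on day 6. KRT18 was lowest on day 3 and rose by 0.35 (SE 0.09) on day 6 against day 3 (edgeR adjusted p = 0.0167), while day 6 against day 0 gave 0.12 (SE 0.09, adjusted p = 0.25) with overlapping libraries. KRT7, of glandular and ductal epithelium, had 306, 310 and 300 CPM on day 0, 329, 337 and 344 on day 3 and 349, 321 and 375 on day 6. All later KRT7 libraries were above day 0, and the rise on day 6 against day 0 was 0.19 (SE 0.07, edgeR adjusted p = 0.0474). KRT19, a type I keratin of simple epithelium, was called in no comparison and averaged 286 ± 15, 273 ± 15.7 and 269 ± 21.9 CPM on day 0, day 3 and day 6 (SD, n = 3 each).

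The changes of these abundant keratins are small, and their calls depended on single libraries and on the fit. The KRT7 call on day 6 against day 0 was lost with median-ratio size factors, with no filter and with only the 2 days compared (edgeR adjusted p = 0.0613, 0.161 and 0.119), and that of KRT8 with no filter and with only the 2 days compared (0.0691 and 0.0654). KRT18 was called higher on day 6 against day 0 with library size only and at a mean of at least 5 CPM (0.24 and 0.21, adjusted p = 0.0162 and 0.0497), and lower on day 3 with median-ratio factors and in DESeq2 (-0.24 in both, adjusted p = 0.0483 and 0.0247). The KRT7 call was lost when any library other than day 0 replicate 2 or day 6 replicate 2 was left out (edgeR adjusted p 0.0775 to 0.205). KRT8 on day 6 against day 0 lost its call without day 0 replicate 1 or 3, day 3 replicate 3 or day 6 replicate 1 or 3 (log2 change 0.16 to 0.24, edgeR adjusted p 0.051 to 0.112), and on day 6 against day 3 without any day 3 library or day 6 replicate 1 or 3 (0.22 to 0.31, adjusted p 0.0626 to 0.11). KRT18 on day 6 against day 3 lost it without any day 3 library or day 6 replicate 3 (0.27 to 0.37, adjusted p 0.0506 to 0.0824), and without day 0 replicate 2 it was also called on day 6 against day 0 (0.18, adjusted p = 0.043). Without day 0 replicate 1 or day 6 replicate 3, KRT18 was called lower on day 3 against day 0 (-0.28 and -0.23, edgeR adjusted p = 0.0333 and 0.0415), where all libraries together gave -0.22 (adjusted p = 0.0592). The KRT8 and KRT18 loci overlap on opposite strands and the KRT7 and KRT86 loci on the same strand, and whether counting used strand is not stated.

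Per kilobase of transcript, type II keratins summed to 537 ± 7.57 CPM on day 0, 556 ± 16.1 on day 3 and 628 ± 48.7 on day 6, and type I keratins to 434 ± 30.4, 402 ± 17.8 and 449 ± 34.1 (SD, n = 3 each). The ratio of type II to type I was 1.24 ± 0.07 on day 0, 1.39 ± 0.0208 on day 3 and 1.40 ± 0.0208 on day 6. All day 3 and day 6 libraries were above the highest day 0 library, 1.31. For KRT8 over KRT18 alone the ratio was 1.25 ± 0.0808, 1.39 ± 0.0346 and 1.34 ± 0.0321. The ratio's level rests on the median length of each gene's coding transcripts, and its change over days is described without a test.

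**Figure D1:**
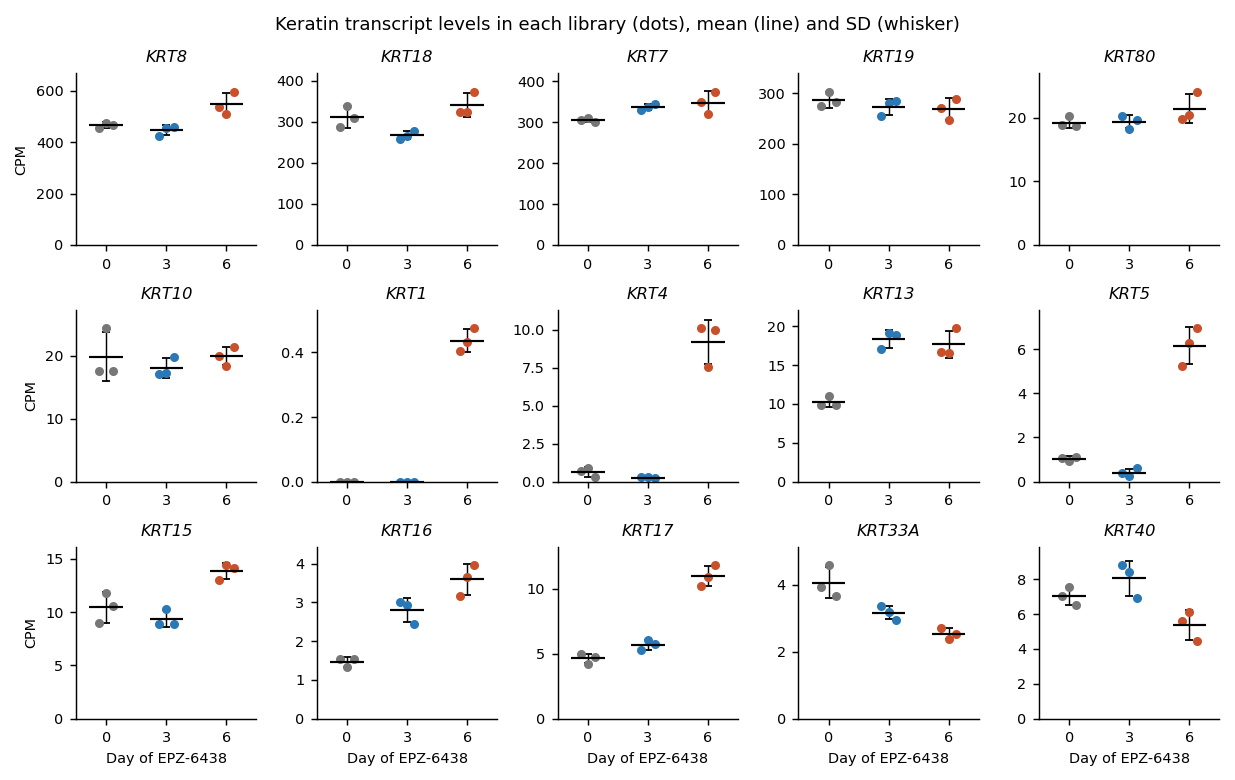
Level in CPM of the 15 keratins that passed the filter, by day of EPZ-6438, each panel with its own linear axis from 0; dots are libraries, horizontal lines the mean of 3 and whiskers the SD. KRT4 and KRT5 dip on day 3 and are highest on day 6 (9.23 and 6.16 CPM on average), KRT13 reaches its level by day 3, and KRT19 stays between 246 and 303 CPM in every library.

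Among the tested keratins of stratified epithelium with counts on every day, KRT4 and KRT5 had the largest log2 changes on day 6. Both type II genes were low on day 0, lower on day 3 and high on day 6. KRT4, the suprabasal keratin of moist mucosa such as esophagus (chr12:52806549-52814551, minus strand, GRCh38), had 0.686, 0.936 and 0.329 CPM on day 0, 0.298, 0.301 and 0.217 on day 3 and 10.1, 7.54 and 10 on day 6. Every day 6 library was far above all others, and the day 3 libraries lay just under the lowest day 0 library. KRT4 rose on day 6 by 3.80 (SE 0.26) on the log2 scale against day 0 and by 5.04 (SE 0.29) against day 3 (edgeR adjusted p = 2.59e-07 and 5.81e-07). Its pooled counts over 3 libraries were 50 on day 0, 22 on day 3 and 709 on day 6. The fall on day 3 against day 0, a log2 change of -1.25 (SE 0.39, edgeR adjusted p = 0.0232), was lost without day 0 replicate 1 or 2 or any 1 of the day 3 libraries (-0.95 to -1.33, adjusted p 0.0526 to 0.0741) and in limma-voom (adjusted p = 0.0835).

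KRT5, the type II keratin of basal cells (chr12:52514575-52520687, minus strand, GRCh38), had 1.08, 0.936 and 1.13 CPM on day 0, 0.373, 0.268 and 0.609 on day 3 and 5.25, 6.29 and 6.93 on day 6. The groups of libraries did not overlap between any pair of days. KRT5 fell on day 3 against day 0, with a log2 change of -1.36 (SE 0.29, edgeR adjusted p = 0.00362), and this call held under all 19 alternatives in which KRT5 was tested. On day 6 it rose by 2.55 (SE 0.22) against day 0 and by 3.91 (SE 0.25) against day 3 (edgeR adjusted p = 2.25e-06 and 1.41e-06). Pooled counts were 79, 32 and 463 on day 0, day 3 and day 6. KRT14, the type I partner of KRT5 in basal cells, had 1 count on day 0, 0 on day 3 and 2 on day 6 over 3 libraries each, so it was at the floor on all days. KRT15, the other type I basal keratin, had 8.95, 11.8 and 10.6 CPM on day 0, 8.87, 10.3 and 8.92 on day 3 and 13, 14.4 and 14.1 on day 6. Its day 6 libraries were above all others, and it rose by 0.41 (SE 0.12) against day 0 and 0.56 (SE 0.12) against day 3 (edgeR adjusted p = 0.0104 and 0.00578).

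The sequences around the starts of KRT4 and KRT5 are shown because these genes had the largest log2 changes on day 6 among the tested keratins with counts on every day. They are RefSeq promoters on GRCh38.p14, from 250 bases before to 50 after the RefSeq start, written 5′ to 3′ on the minus strand at chr12:52814067-52814366 for KRT4 and chr12:52520345-52520644 for KRT5. Capitals mark ATAA, the core of a TATA-like element, 28 bases before the start in KRT4 and 29 in KRT5. In KRT5 they also mark a match to a form of the p53-family decamer that begins 97 bases before the start. The form searched was RRRCATGYYY, with R a purine and Y a pyrimidine.
KRT4: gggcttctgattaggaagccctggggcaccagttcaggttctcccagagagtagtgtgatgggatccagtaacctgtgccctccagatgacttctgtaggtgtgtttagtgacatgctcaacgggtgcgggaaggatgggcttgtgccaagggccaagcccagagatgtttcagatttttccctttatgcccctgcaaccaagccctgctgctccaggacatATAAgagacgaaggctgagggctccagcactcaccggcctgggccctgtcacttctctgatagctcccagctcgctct
KRT5: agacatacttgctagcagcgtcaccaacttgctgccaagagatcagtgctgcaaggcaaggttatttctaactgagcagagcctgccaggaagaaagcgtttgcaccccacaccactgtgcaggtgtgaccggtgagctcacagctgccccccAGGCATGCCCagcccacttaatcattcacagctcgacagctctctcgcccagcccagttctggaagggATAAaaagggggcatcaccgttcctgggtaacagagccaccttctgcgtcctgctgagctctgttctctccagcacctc
A match is a description of letters and shows no binding. The RRRCATGYYY form, searched on both strands, was in 3 of the 34 keratin promoters in the table (KRT5, KRT8 and KRT10), 8.82%, and in 1.55% of all 27305 promoters. Forms of the decamer with another core than CATG were not searched.

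Keratin promoters shared a composition. The 34 had a median of 2 CpG dinucleotides and 45.7% G plus C, against 14 and 58.3% over all promoters. TATAAA on the sense strand, beginning 20 to 40 bases before the start, was in 15 of 34 (44.1%) and in 2.55% of all promoters. The shorter ATAA in that window, which TATAAA contains, was in 29 of 34 (85.3%) and in 8.76% of all. A single start was used per gene. That of KRT8 (chr12:52926420-52926719) lies inside its GENCODE locus (chr12:52897187-52949954), which has 5 coding transcripts. At this start KRT8 lacked ATAA 20 to 40 bases before it and had 2 CpG, and other KRT8 starts were not examined. On both strands of the whole window, GGGCGG, the GC box, was in 6 (17.6%) of the keratin promoters against 44.6% of all, and ACAAAG, a SOX-type motif, in 5 (14.7%) against 16.0%. TGANTCA, the AP-1 motif, was in 0 of 34, against 7.76% of all. KRT1, KRT7, KRT13, KRT15, KRT16, KRT17, KRT18, KRT19 and KRT80 were among the 21 keratins not matched.

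KRT13, the type I mucosal partner of KRT4, followed another course. It had 9.9, 11 and 9.87 CPM on day 0, 17, 19.1 and 18.9 on day 3 and 16.7, 16.6 and 19.7 on day 6. The later days overlapped each other and were both above day 0. KRT13 rose by 0.84 (SE 0.10) on day 3 and by 0.79 (SE 0.10) on day 6 against day 0 (edgeR adjusted p = 7.51e-05 and 4.55e-05), and day 6 against day 3 gave -0.05 (SE 0.10, adjusted p = 0.789).

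KRT16 and KRT17, the wound and stress keratins, both rose by day 6. KRT16 had 1.54, 1.32 and 1.55 CPM on day 0, 3.02, 2.94 and 2.44 on day 3 and 3.16, 3.66 and 3.96 on day 6, with no overlap between days. Against day 0 it rose by 0.93 (SE 0.18) on day 3 and 1.28 (SE 0.18) on day 6 (edgeR adjusted p = 0.00182 and 8.43e-05). Its change on day 6 against day 3, 0.35 (SE 0.17, edgeR adjusted p = 0.188), was not called. KRT17 had 4.93, 4.21 and 4.75 CPM on day 0, 5.29, 6.02 and 5.7 on day 3 and 10.2, 10.9 and 11.8 on day 6. The estimated step on day 6 was the larger one: KRT17 rose by 1.24 (SE 0.11) against day 0 and 0.95 (SE 0.11) against day 3 (edgeR adjusted p = 3.35e-06 and 0.000112), and day 3 against day 0 gave 0.29 (adjusted p = 0.0685). The difference between these steps, 0.66 (SE 0.20, edgeR adjusted p = 0.0689), was not called. KRT14, KRT16 and KRT17 are closely similar in sequence, so reads may be divided between them with error. With their counts summed, day 3 against day 0 was called for the sum (0.47, adjusted p = 0.00532), as was day 6 against day 3 (0.78, adjusted p = 0.000269). Rows of KRT16 pseudogenes moved with KRT16, at 6, 5 and 3 counts on day 0, 44, 18 and 15 on day 3 and 44, 32 and 49 on day 6, and how reads were divided between them was not tested.

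The epidermal suprabasal pair split. KRT1 had 0 counts in all 6 libraries of day 0 and day 3 and 12, 10 and 11 counts on day 6. It was at least 10.9-fold higher on day 6 than on day 0 and at least 11.5-fold higher than on day 3, taking 3 counts over a day's libraries as the most that 0 allows. KRT10, its type I partner, was called in no comparison and had 17.5, 24.3 and 17.6 CPM on day 0, 17.1, 17.2 and 19.8 on day 3 and 20, 18.4 and 21.4 on day 6. The highest value, 24.3, was in day 0 replicate 2. KRT80, a type II keratin of many epithelia, was also called in no comparison, at 18.2 to 24.1 CPM in the 9 libraries.

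The hair keratins KRT33A and KRT40 were the only tested keratins called lower on day 6 against day 0. KRT33A had 3.95, 4.59 and 3.67 CPM on day 0, 3.36, 3.18 and 2.96 on day 3 and 2.72, 2.37 and 2.54 on day 6. No library of one day overlapped another day, and the log2 change on day 6 against day 0 was -0.67 (SE 0.15, edgeR adjusted p = 0.00263). The steps between were not called: day 3 against day 0 gave -0.36 and day 6 against day 3 -0.31 (edgeR adjusted p = 0.0704 and 0.21). KRT40 had 7.02, 7.53 and 6.54 CPM on day 0, 8.8, 8.43 and 6.92 on day 3 and 5.58, 6.12 and 4.44 on day 6. All day 6 libraries were the lowest, with a log2 change of -0.38 (SE 0.14) against day 0 and -0.58 (SE 0.14) against day 3 (edgeR adjusted p = 0.0389 and 0.0145). The first KRT40 call was lost without day 0 replicate 1 or 2, day 3 replicate 2 or day 6 replicate 1 or 3 (-0.28 to -0.42, adjusted p 0.0521 to 0.129), and the other without day 3 replicate 1 or 2 or day 6 replicate 3 (-0.47 to -0.55, adjusted p 0.0578 to 0.0677).

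Counted over the family, day 3 against day 0 called 2 keratins higher (KRT13, KRT16) and 2 lower (KRT4, KRT5) of 15 tested. Of all 15345 genes tested, 40.6% were called, 22.5% higher and 18.1% lower. Day 6 against day 0 called 9 higher (KRT1, KRT4, KRT5, KRT7, KRT8, KRT13, KRT15, KRT16, KRT17) and 2 lower (KRT33A, KRT40), against 28.9% and 25.7% of all genes and 54.6% in either direction. Day 6 against day 3 called 7 higher (KRT1, KRT4, KRT5, KRT8, KRT15, KRT17, KRT18) and 1 lower (KRT40), against 11.5% and 4.76% of all genes and 16.3% in either direction. With a change of at least 2-fold required, 0 keratins were higher and 2 lower on day 3 against day 0, 5 higher and 0 lower on day 6 against day 0, and 3 higher and 0 lower on day 6 against day 3. The matching shares of all genes were 9.18% and 0.384%, 14.9% and 0.775%, and 6.32% and 0.45%. The libraries of the days compared did not overlap for 8 of 15 keratins (53.8% of all genes) in the day 3 and day 0 libraries, for 11 (58.7%) in those of day 6 and day 0, and for 10 (43.5%) in those of day 6 and day 3. Scaling by library size only, in place of TMM, moved the median log2 change of all genes by 0.11 on day 6 against day 0 and the share of calls that were higher to 66.6%, against 53% under TMM. Leaving out KRT1 and KRT4 and setting the others against the 14392 genes that pass the filter with any 1 day left out, 7 of 13 keratins were higher and 2 lower on day 6 against day 0 (27% and 27.3% of these genes), and 5 were higher and 1 lower on day 6 against day 3 (9.6% and 5.02%). At 2-fold this left 3 higher on day 6 against day 0 (KRT5, KRT16, KRT17) and 1 on day 6 against day 3 (KRT5), against 12.1% and 4.06%, and libraries that did not overlap for 9 (58.3%) and 8 (42.6%). The comparisons share libraries, so their counts are not independent of each other.

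The contrast of the day 3 to day 6 change with the day 0 to day 3 change, both intervals of 3 days, was called for 4 of 15 tested keratins and for 7.57% of all genes. For KRT4 the later change exceeded the earlier by 6.29 (SE 0.62) on the log2 scale, for KRT5 by 5.27 (SE 0.50) and for KRT18 by 0.57 (SE 0.15) (edgeR adjusted p = 0.000234, 0.000177 and 0.0428). For KRT13 the difference was -0.89 (SE 0.17, adjusted p = 0.0082). The fraction of genes called in the positive direction was 1.56% and in the negative direction 6.01%. KRT4 passed the filter only with the day 6 libraries, which favoured a positive contrast. Leaving out KRT1 and KRT4, 2 of 13 keratins were positive (KRT5, KRT18) and 1 negative (KRT13). The shares of the 14392 genes that pass with any 1 day left out were 1.56% and 6.29%. Without day 0 replicate 2 the contrast was positive for 6 keratins (KRT4, KRT5, KRT8, KRT15, KRT17, KRT18) and negative for 2 (KRT13, KRT40) of 16 tested, when 6.09% and 11.6% of all genes were called. The KRT13 call was lost without day 3 replicate 2 or 3 (-0.83 and -0.84, adjusted p = 0.0614 and 0.0644), and the KRT18 call held without day 0 replicate 1 or 2 but not without any other library (0.50 to 0.64, adjusted p 0.0615 to 0.196).

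**Figure D2:**
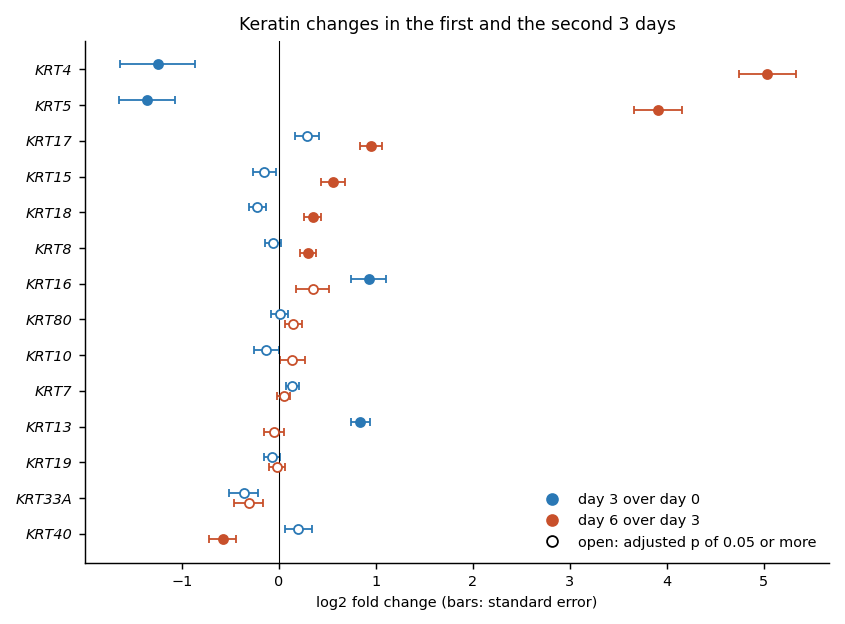
Log2 fold change of 14 tested keratins on day 3 over day 0 (blue) and on day 6 over day 3 (orange), with bars for the standard error and open circles where the adjusted p was 0.05 or more; KRT1 is left out because its counts on day 0 and day 3 were 0. KRT4 and KRT5 go below 0 in the first interval (-1.25 and -1.36) and far above it in the second (5.04 and 3.91), and KRT13 and KRT16 move in the first.

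Keratins below the filter were counted by pooling the 3 libraries of a day. At least 1 count was found for 27 keratins on day 0, 28 on day 3 and 40 on day 6, and 10 had counts on day 6 and none before (KRT1, KRT2, KRT6C, KRT20, KRT23, KRT31, KRT37, KRT73, KRT75, KRT77). Among these, KRT6C and KRT31 had 1 count in all and KRT20, KRT37 and KRT73 had 2, too few to show a change. The matching numbers over all genes were not counted, so these numbers of keratins are a description only. Of the 28 keratins below the filter, the exact 95% interval of the day 6 to day 0 ratio lay above 1 for 9 and below 1 for 0, against 13.1% and 2.3% of 7607 genes below the filter. For day 6 against day 3 it lay above 1 for 8 of 25 and below 1 for 0, against 8.56% and 1.99% of genes. For day 3 against day 0 both counts were 0 of 19, against 5.73% and 2.2%. Leaving out 1 library gave 5 to 8 for day 6 against day 3, with 5 without day 3 replicate 2 or 3 or day 6 replicate 3. The intervals cover counting error only.

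KRT6A, the type II partner of KRT16, had 17 counts on day 6 (10, 4 and 3) and 1 count on day 0, a ratio of 16.8 (95% interval 2.64 to 703), and the near-identical KRT6B and KRT6C had at most 1 count on any day. KRT3, a corneal keratin, had 23 counts on day 6 and 6 on day 0, a ratio of 3.8 (1.5 to 11.4). KRT76, of the hard palate, had 27 and 9, a ratio of 2.97 (1.36 to 7.18). These keratins had counts on each day and more on day 6. KRT78, found in esophagus, had 8 on day 6 and 1 on day 0, a ratio of 7.92 (1.06 to 351). Against 0 counts on day 0, KRT23 with 15 counts on day 6 was at least 4.95-fold higher, KRT79 with 13 at least 4.29-fold, KRT2 with 12 at least 3.96-fold, and KRT75 and KRT77 with 6 each at least 1.98-fold. KRT23, in which each day 6 library had 5 counts, is a type I keratin of glandular epithelium, KRT2 a late epidermal keratin, KRT77 a keratin of sweat ducts, and KRT75 and KRT79 belong to the hair follicle. The remaining members were KRT83, KRT86, KRT39, KRT85 and KRT24, with 5 counts or more in all and intervals that included 1, and 14 others with under 5 counts in all, among them KRT9, KRT14, KRT20, KRT31 and KRT81. The 12 keratins at 0 were KRT12, KRT222 and 10 of hair and its root sheath (KRT25, KRT27, KRT32, KRT33B, KRT34, KRT35, KRT36, KRT71, KRT72, KRT82).

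**Figure D3:**
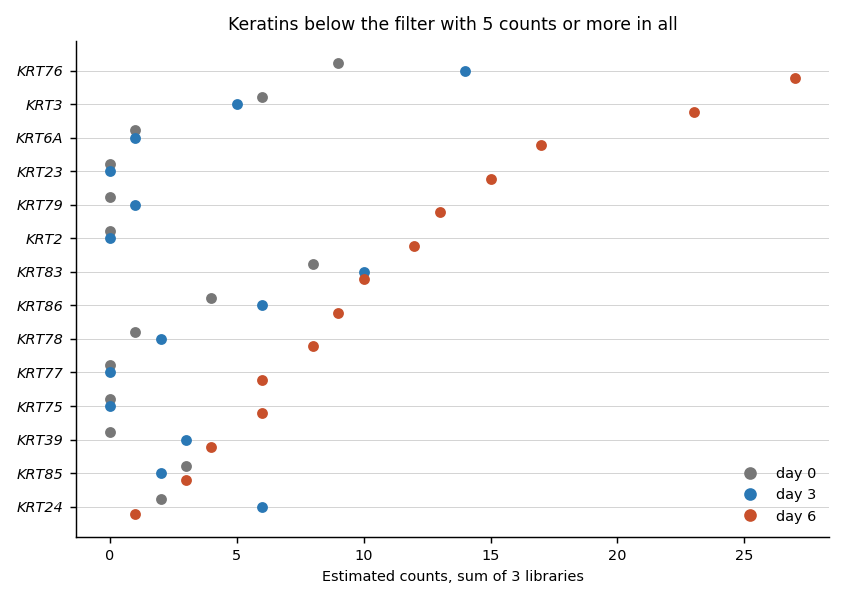
Estimated counts summed over 3 libraries on day 0, day 3 and day 6 for the 14 keratins below the filter with 5 counts or more in all. KRT76 reaches 27 counts and KRT3 23 on day 6, while KRT83 is at 8, 10 and 10.

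In map order, the called rises sat in both clusters. On chromosome 12 the run KRT2, KRT1, KRT77, KRT76, KRT3, KRT4, KRT79 and KRT78 had a day 6 to day 0 ratio above 1 by its 95% interval in all 8 genes, and of the flanking KRT71 to KRT74 none had over 3 counts on either day. Intervals above 1 were also found outside the run, among them for KRT8 and KRT18 next to KRT78 and for KRT5 and KRT6A beyond KRT71. Of genes below the filter with counts, 13.1% had such an interval, and the share over all genes is not given here. On chromosome 17, KRT13, KRT15, KRT16 and KRT17 rose while KRT19, between KRT15 and KRT9, was called in no comparison. The run was picked after its values were seen and has no test.

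**Figure D4:**
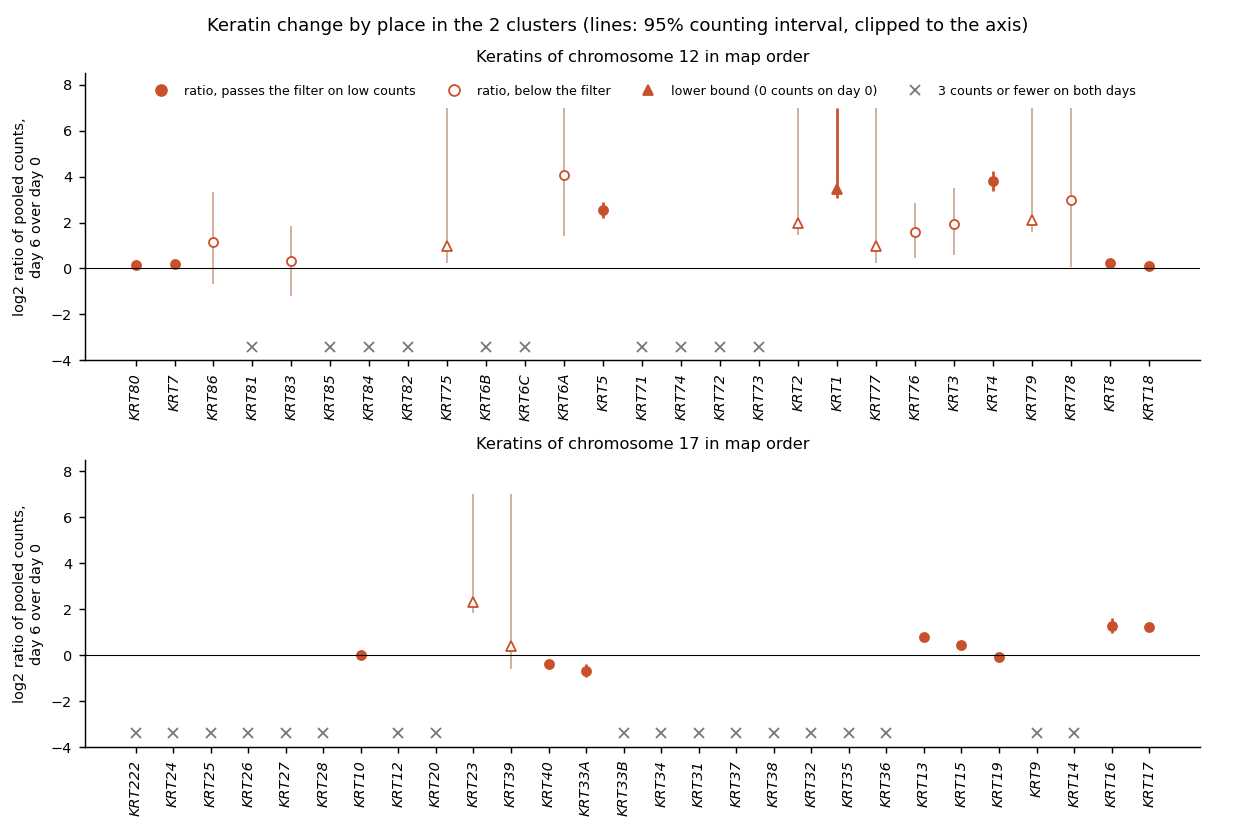
Log2 ratio of pooled counts, day 6 over day 0, for keratins in map order on chromosome 12 (top) and chromosome 17 (bottom); filled symbols passed the filter, open ones did not, triangles are lower bounds against 0 counts and crosses mark 3 counts or fewer on both days. Lines are exact 95% intervals, cut at the axis, and the run from KRT2 to KRT78 lies above 0 throughout.

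Desmosomes, to which keratin filaments attach between cells, gained several transcripts. Of 11 desmosome genes tested, 5 were higher and 1 lower on day 3 and 7 higher and 1 lower on day 6 against day 0, against 22.5% and 18.1% of all genes on day 3 and 28.9% and 25.7% on day 6. Their median log2 change on day 6 was 0.57, against 0.01 over all genes. DSC2 passed the filter only with the day 6 libraries. DSG2, a desmosomal cadherin, had 0.784, 0.723 and 0.893 CPM on day 0, 1.49, 1.81 and 1.26 on day 3 and 10.3, 11.1 and 9.26 on day 6. It rose most between day 3 and day 6, by 2.74 (SE 0.16, edgeR adjusted p = 6.42e-07), and by 3.67 (SE 0.18, adjusted p = 1.72e-08) on day 6 against day 0. DSC2, its cadherin counterpart, had 249 pooled counts on day 6 and 6 on day 0, a ratio of 41.1 (95% interval 18.6 to 113). PPL, which links keratin to the cell envelope, averaged 8.54 ± 1.76 CPM on day 0, 27.4 ± 0.565 on day 3 and 36.9 ± 3.96 on day 6 (SD, n = 3 each), with a rise of 2.11 (SE 0.14, edgeR adjusted p = 1.61e-07) on day 6 against day 0. JUP, plakoglobin, whose gene lies beside the chromosome 17 cluster, rose by 0.69 (SE 0.08, adjusted p = 3.12e-05), and PKP4 was the 1 gene lower (-0.37, adjusted p = 0.000679). DSP, the plakin that binds keratin directly, had 738, 518 and 767 CPM on day 0 and 673 to 758 CPM later, and was called in no comparison. Its lowest value was day 0 replicate 2, and without that library the day 6 against day 0 change turned from 0.08 to -0.08 (adjusted p = 0.266).

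Of 6 hemidesmosome genes tested, all 6 were higher on day 6 and 5 on day 3 against day 0, where 28.9% and 22.5% of all genes were, with a median log2 change of 0.88 on day 6. ITGB4, the integrin chain that ties keratin to the basement membrane, averaged 4.39 ± 0.675 CPM on day 0, 12.4 ± 1.48 on day 3 and 15.3 ± 3.22 on day 6 (SD, n = 3 each). It rose by 1.79 (SE 0.17, edgeR adjusted p = 3.88e-06) on day 6, with ITGA6, LAMA3 and DST up by 0.63, 1.06 and 1.06. PLEC, which joins keratin to ITGB4, had 139, 56.7 and 138 CPM on day 0, 162, 170 and 171 on day 3 and 178, 160 and 208 on day 6. Its call on day 6 against day 0 (0.71, SE 0.25, edgeR adjusted p = 0.0306) was lost without day 6 replicate 1 or 3 (0.72 and 0.59, adjusted p = 0.0627 and 0.123), in DESeq2 (adjusted p = 0.0659) and with only the 2 days compared (adjusted p = 0.0549), and the lowest value was again day 0 replicate 2.

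Among 22 tested regulators of keratin and epithelial genes, 8 were higher and 2 lower on day 3, and 12 higher and 5 lower on day 6 against day 0. All genes gave 22.5% and 18.1% on day 3 and 28.9% and 25.7% on day 6, so the share that was lower on day 6 was near that of all genes. Pooled counts fell on day 6 against day 0 for ZNF750, TFAP2A and KLF5, with ratios of 0.667, 0.744 and 0.754 and counting intervals below 1. Of the 22, 3 passed the filter only with the libraries of 1 day, TP63 and GRHL3 among them. Without day 3 replicate 3, 5 were higher and 1 lower on day 3. TP63, encoding p63, the master regulator of squamous epithelium, had 0.098, 0.0425 and 0.047 CPM on day 0, 0.857, 0.234 and 1 on day 3 and 0.471, 0.517 and 0.56 on day 6. Pooled counts were 5, 53 and 39, so TP63 was higher on both later days (log2 3.28 and 2.87, edgeR adjusted p = 0.00206 and 0.00344). KRT4 and KRT5 were at their lowest on day 3, when TP63 had its highest pooled count, although TP63 on day 6 against day 3 gave -0.41 (adjusted p = 0.624). The part of TP63 in the changes of KRT4 and KRT5 was not tested. SOX2, of foregut and basal progenitors, had 4, 53 and 198 pooled counts, a ratio of 49 (95% interval 18.8 to 182) on day 6 against day 0. ELF3, of epithelial maturation, rose by 1.01 (SE 0.12) on day 6 against day 0 (edgeR adjusted p = 2.07e-05). GRHL3, a grainyhead factor of the epidermal barrier, had 11, 4 and 65 pooled counts, and its later change exceeded its earlier one by 5.44 (SE 1.36, edgeR adjusted p = 0.0338).

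**Figure D5:**
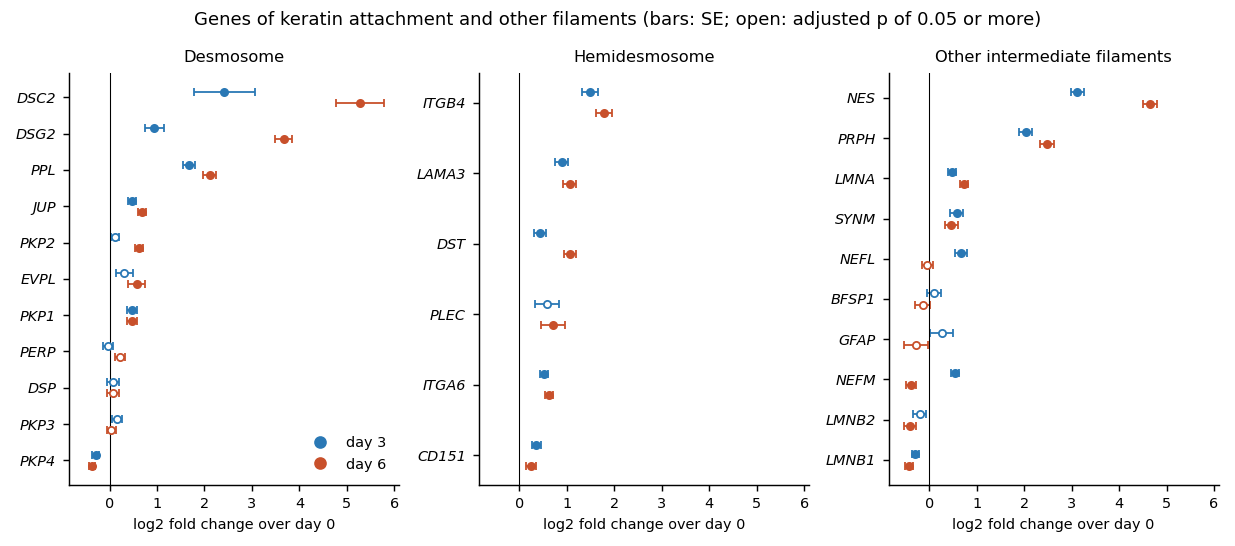
Log2 fold change over day 0 on day 3 (blue) and day 6 (orange) of tested desmosome, hemidesmosome and other intermediate filament genes, with bars for the standard error and open circles where the adjusted p was 0.05 or more; DES is left out because its day 0 counts were 0. DSG2 and NES lie far right on day 6 (3.67 and 4.65), and DSP stays near 0 on both days.

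Other intermediate filament genes moved both ways. Of 11 tested, 7 were higher and 1 lower on day 3, and 5 higher and 3 lower on day 6 against day 0. The shares of all genes were 22.5% and 18.1%, and 28.9% and 25.7%, so the lower count on day 6 was near that of all genes. DES, among those higher on day 6, had 0 pooled counts on day 0 and 42 on day 6. It passed the filter only with the libraries of 1 day, which favoured a difference. Without day 0 replicate 2, 2 were lower on day 3, and without day 3 replicate 1, 0 were. NES, nestin of progenitor cells, had 1.89, 1.53 and 2.45 CPM on day 0, 17.3, 15.6 and 18.1 on day 3 and 50.9, 46 and 50 on day 6, a rise of 4.65 (SE 0.14, edgeR adjusted p = 1.03e-09) on day 6 against day 0. PRPH, peripherin of peripheral neurons, rose by 2.48 (SE 0.14, adjusted p = 4.75e-08) and LMNA, a nuclear lamin, by 0.73. NEFL, a neurofilament, averaged 217 ± 34.3 CPM on day 0, 344 ± 26.1 on day 3 and 211 ± 22.8 on day 6 (SD, n = 3 each). It was higher on day 3 than on day 0 (0.67, edgeR adjusted p = 0.0012) and lower on day 6 than on day 3 (-0.71, adjusted p = 0.00154). VIM, the filament of mesenchymal cells, had 0, 3 and 16 pooled counts.

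Of 14 tested genes that bind or modify keratin, 4 were higher and 3 lower on day 3, and 4 higher and 5 lower on day 6 against day 0. With 22.5% and 18.1% of all genes called on day 3 and 28.9% and 25.7% on day 6, the count that was higher on day 6 was near that of all genes. Without day 3 replicate 2 or 3, 2 were higher and 1 lower on day 3. TCHH, trichohyalin of the hair root sheath, rose by 2.77 (SE 0.39) on day 6, and TCHP and DNAJB6, which bind keratins, had log2 changes of -0.54 and -0.36 (edgeR adjusted p = 9.24e-05, 0.000312 and 0.000789). Of 13 tested genes next to the clusters, 6 were higher and 2 lower on day 3 and 7 higher and 2 lower on day 6 against day 0, beside the same shares of all genes. HAP1 and IGFBP6 rose by 0.85 and 1.48 on day 6 against day 0 (adjusted p = 3.65e-05 and 0.000155). The lower count of 2 came to 1 without day 0 replicate 3 or any day 3 library on day 3, and on day 6 without any library except day 0 replicate 2 and day 6 replicate 1.

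Of 148 keratin pseudogene rows, 7 were tested, with 2 higher and 2 lower on day 3 and on day 6 against day 0, beside 22.5% and 18.1% of all genes on day 3, and near the 28.9% and 25.7% of day 6. The 2 that were higher, KRT16P1 and KRT16P3, passed the filter only with the libraries of 1 day, which favoured a difference. KRT8P12 averaged 10.8 CPM on day 0, 8.51 on day 3 and 6.85 on day 6, opposite to KRT8 on day 6. Of 111 KRTAP genes, which encode hair-matrix proteins, KRTAP3-1 was the 1 tested, higher on day 3 than on day 0 by 1.04 (edgeR adjusted p = 0.00524).

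Markers of other cells moved too. Of 8 fibroblast markers, 2 reached 1 CPM and the sum was 55.4 to 60.1 CPM on day 0, 78 to 83.8 on day 3 and 73.7 to 80.8 on day 6, mostly PDGFRA. Of 6 endothelial markers, 2 did and CLDN5 was at 0, with sums of 2.49 to 3.4, 5.09 to 5.85 and 9.15 to 12.6 CPM. Of 6 leukocyte markers, 2 did, with sums of 488 to 643, 346 to 362 and 326 to 329 CPM, nearly all LYZ. NCAM1, an adhesion molecule of neural and neuroendocrine cells, had 6.26, 15.4 and 20.1 CPM on average on day 0, day 3 and day 6. The part of any of these in the keratin changes was not tested, and in bulk RNA more cells of a kind and more RNA per cell cannot be told apart.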

How the data were processed

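Poly-A RNA from 9 TYUC-1 libraries was measured, 3 for each of day 0, day 3 and day 6. The deposited table holds estimated counts as unscaled whole numbers. Named in the submitters' processing notes are kallisto 0.44.0, bcl2fastq 2.19 and DESeq2, with GRCh38, GRCm38 and hg38, without the role of each, and how transcripts were summed to genes is not given in the sources used here. Kallisto divides reads shared by several transcripts by estimation, so closely similar keratins and their pseudogenes have uncertain counts.

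The estimated counts were rounded, TMM-scaled and tested in edgeR 4.0.16 (R 4.3.3) by quasi-likelihood. All libraries entered 1 fit after filterByExpr with a minimum count of 10, which left 15345 genes, and p-values were adjusted over them by the Benjamini-Hochberg method at 0.05. Tested on simulated data, 76% of 200 genes changed 2-fold were recovered for day 6 against day 0 among 14970 genes, with 10 false calls. In the simulation no other gene changed and no library stood apart, unlike in these data, so its rates may not hold for them. Below the filter, the counts of 3 libraries were pooled and given as a ratio with an exact 95% Poisson interval, and 0 counts were set to a floor of 3 counts over the group. Coordinates and coding-transcript lengths came from GENCODE release 29 and promoters from RefSeq. P-values measure the spread between the samples labelled as biological replicates.

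The keratins and all gene lists were chosen with earlier results of these data known. Keratins were named with every library when they averaged at least 1 CPM on some day or were called. From each other list up to 4 genes with the lowest p were eligible, together with TP63, VIM, DSP, JUP and PLEC. PKP4, ZNF750, TFAP2A and KLF5 were named after their values were seen. Alternatives were other scalings and filters, DESeq2 1.42.0, limma-voom (limma 3.58.1), fits of 2 days, a replicate block, pseudogene or paralog counts added, a 2-fold minimum and each library left out. Single values of some genes in the lists are not reported here.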

Additional observations from a re-analysis of the deposited data

Results flagged for a closer look

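For 4 keratins the change between day 3 and day 6 differed from the change between day 0 and day 3 by the edgeR test of that difference. KRT4, the mucosal suprabasal keratin, had the later change above the earlier by 6.29 on the log2 scale (SE 0.62, adjusted p = 0.000234), with adjusted p up to 0.0027 over its alternatives. It passed the filter only with the day 6 libraries, which favoured a positive contrast. KRT5, the basal keratin, had 5.27 (SE 0.50, adjusted p = 0.000177), with adjusted p up to 0.0025. KRT18, the simple-epithelial type I keratin, had 0.57 (SE 0.15, adjusted p = 0.0428), with adjusted p from 0.00443 to 0.196. KRT13, the mucosal type I keratin, had -0.89 (SE 0.17, adjusted p = 0.0082), with adjusted p from 0.000976 to 0.0644. The 3 libraries of a day bound the precision, and the part of day 0 replicate 2, which stood apart, is given beside the contrast above.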

How the results depend on the processing

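Of 1127 keratin tests under the alternatives, 1004 kept direction and side of the threshold, 68 lost a call, 24 gained one and 31 changed sign. KRT5, KRT16 and KRT17 kept their calls on day 6 against day 0 in every alternative in which they were tested. With paralogs summed, the same sum of KRT14, KRT16 and KRT17 was entered for both KRT16 and KRT17. Counts moved as follows, and the cause was not tested unless the setting itself removes genes. On day 3 against day 0, keratins higher numbered 4 with library size only and 0 with a 2-fold minimum. Keratins lower numbered 0 at a mean of at least 5 CPM, which removes KRT4 and KRT5, 1 in limma-voom, 1 with only the 2 days compared, and 1 to 3 with a library left out. On day 6 against day 0, 11 were higher with library size only, 7 at 5 CPM and 5 at 2-fold, and those lower were 1 with library size only, 0 at 5 CPM, 1 with only the 2 days, 0 at 2-fold and 1 to 2 with a library left out. On day 6 against day 3, 4 were higher at 5 CPM and 3 at 2-fold, and those lower were 0 at 2-fold and 0 to 1 with a library left out. For the contrast of intervals, 1 was positive at 5 CPM and 2 to 6 with a library left out; 0 were negative at 2-fold, 2 with the replicate block, and 0 to 2 with a library left out. Summed keratin CPM on day 0 was 1380 with library size only. Low-count keratins above 1 on day 6 against day 3 were 5 to 8 with a library left out.

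Signs changed only for values that were not called. On day 3 against day 0, KRT19 came to 0.01 and KRT8 to 0.02 with library size only. KRT80 came to -0.01 with median-ratio factors, no filter and DESeq2, and to between -0.02 and 0.05 with a library left out. With a library left out, KRT10 ranged from -0.22 to 0.03 and DSP from -0.09 to 0.18, both crossing 0 without day 0 replicate 2. On day 6 against day 0, KRT10 came to -0.0019 with median-ratio factors, -0.02 with no filter, -0.0022 in DESeq2 and from -0.08 to 0.17 with a library left out, KRT19 to 0.02 with library size only, and DSP from -0.08 (without day 0 replicate 2) to 0.18. On day 6 against day 3, KRT19 came to 0.01 with library size only and 0.01 at 5 CPM and up to 0.03 with a library left out. KRT7 ranged from -0.01 (without day 6 replicate 3) to 0.10, and DSP came to -0.0016 with no filter and from -0.03 to 0.05 with a library left out. For the contrast of intervals, the sum of KRT14, KRT16 and KRT17 came to 0.31, where KRT16 alone gave -0.58. In the same contrast KRT19 came to -0.0039 and KRT33A to -6.4e-05 with library size only. With a library left out, KRT19 there ranged from -0.05 to 0.10 and KRT33A from -0.04 to 0.14.

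Same-numbered replicates did not deviate together (9 pairs, correlations -0.0774 to 0.127), and 1 library correlated best with its own number on both other days. With the replicate block the KRT7 call on day 6 against day 0 was lost (0.19, adjusted p = 0.0673) and the interval contrast of KRT15 and KRT40 gained one (0.71 and -0.78, adjusted p = 0.0403 and 0.0475). Depth limits keratins with few counts: no keratin with under 5 counts in all had a pooled interval apart from 1.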
